A study of Mus musculus with 9 samples.

Results

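The genes described here encode the mitochondrial respiratory chain and ATP synthase. They were chosen by name from the deposited table: symbols that begin with Nduf, Uqcr, Cox4 to Cox8 or Atp5, the symbols Sdha to Sdhd, and the mitochondrially encoded mt-Nd, mt-Co, mt-Atp and mt-Cytb genes. This rule took 105 of the 22482 genes in the table, of which 92 lie in the nuclear genome and 13 in mitochondrial DNA. The rule uses no measured value. Of the 105 genes, 104 were measured, meaning that 3 or more of the 9 libraries reached an FPKM of 0.5, and Cox8c, which was listed at 0 in every library, was the exception. FPKM scales the sequenced fragments of a gene to its transcript length and to the depth of the library. The measured nuclear genes were 37 subunits of complex I, 4 of complex II, 8 of complex III, 16 of complex IV and 15 of complex V, with 11 further genes that the names matched but that are not subunits, chiefly the Ndufaf assembly factors of complex I.

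RNA was taken from mouse brain in 3 groups of 3 libraries. The Sham group had the skull drilled and the dura opened with the brain left intact, and tissue was taken at the matching site. The TBI group (traumatic brain injury) was injured by a falling weight and the injured area was collected. The C-β-LG/DSF group had the same injury followed by an injection of C-β-LG/DSF into the tail vein, an agent that the series' title places among nanoparticles aimed at pyroptosis, an inflammatory form of cell death. The sources used here give no strain, age, dose or time between injury and collection. The labels name no injection for the TBI group, so the agent and the act of injection cannot be told apart. Nothing in the labels ties each library to its own animal. The p-values rest on the spread between libraries, moderated over all genes, and cannot be taken to measure a spread between animals.

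Complexes I to IV pass electrons from NADH and succinate to oxygen, and complexes I, III and IV pump protons across the inner mitochondrial membrane. Complex V, ATP synthase, uses the proton gradient to make ATP. Complex II is built from nuclear genes alone, while the other complexes join nuclear subunits, made in the cytosol and imported, to a few core subunits that are transcribed and translated inside the mitochondrion. Mitochondrial DNA is read from both strands as long precursors that are cut into messages, largely at the tRNAs between them. Neurons draw most of their ATP from this pathway.

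Some neighbouring genes of mitochondrial DNA overlap, which bears on how far their values are separate. In the GRCm38 annotation mt-Atp8 (chrM:7766-7969, plus strand) and mt-Atp6 (chrM:7927-8607, plus strand) share 43 bases, chrM:7927-7969. The shared stretch is printed with the start codon of mt-Atp6 and the stop codon of mt-Atp8 in capitals:
mt-Atp8 and mt-Atp6 shared bases: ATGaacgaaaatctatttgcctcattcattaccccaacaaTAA
The reading frames of mt-Nd4l and mt-Nd4 share 7 bases in the same way. The gene for mt-Nd6 (chrM:13552-14070) lies on the minus strand and shares 14 positions with the end of mt-Nd5, which lies on the plus strand. The deposited table gives mt-Atp8, mt-Atp6 and mt-Co3 1 shared position, and likewise each of the pairs mt-Nd4l with mt-Nd4 and mt-Nd5 with mt-Nd6. The sources used here do not say whether counting used strand or how reads on shared positions were assigned. How far the values within these groups are tied to each other was not measured.

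The c subunit of ATP synthase, which forms the rotating ring in the membrane, is encoded by 3 nuclear genes, Atp5g1, Atp5g2 and Atp5g3, whose products are trimmed to the same mature protein. Atp5g2 was the member with the smallest adjusted p in TBI against Sham, and the 3 promoters are shown because the genes differ in the DNA that controls them and not in the mature product. The windows, from RefSeq on GRCm38.p6, run from 250 bases before to 50 bases after the RefSeq start, on the minus strand at chr11:96075582-96075881 for Atp5g1, chr15:102670998-102671297 for Atp5g2 and chr2:73911277-73911576 for Atp5g3. The Atp5g2 window lies wholly inside the annotated gene, chr15:102662864-102672352, so its RefSeq start is an internal one. The windows of Atp5g1 and Atp5g3 reach past the annotated starts of their genes. Capitals mark the match to a searched motif on either strand.
Atp5g1: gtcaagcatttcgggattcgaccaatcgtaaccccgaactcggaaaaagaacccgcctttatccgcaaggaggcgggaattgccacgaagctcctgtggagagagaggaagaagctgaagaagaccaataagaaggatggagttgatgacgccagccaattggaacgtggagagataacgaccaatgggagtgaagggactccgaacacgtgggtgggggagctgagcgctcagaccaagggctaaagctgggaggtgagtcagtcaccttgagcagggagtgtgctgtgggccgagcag
Atp5g2: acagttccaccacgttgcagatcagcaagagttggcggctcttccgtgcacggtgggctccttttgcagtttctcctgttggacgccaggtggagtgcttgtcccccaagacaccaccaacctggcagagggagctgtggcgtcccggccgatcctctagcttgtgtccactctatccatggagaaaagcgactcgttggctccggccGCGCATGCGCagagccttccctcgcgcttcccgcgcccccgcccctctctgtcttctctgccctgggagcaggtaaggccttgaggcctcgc
Atp5g3: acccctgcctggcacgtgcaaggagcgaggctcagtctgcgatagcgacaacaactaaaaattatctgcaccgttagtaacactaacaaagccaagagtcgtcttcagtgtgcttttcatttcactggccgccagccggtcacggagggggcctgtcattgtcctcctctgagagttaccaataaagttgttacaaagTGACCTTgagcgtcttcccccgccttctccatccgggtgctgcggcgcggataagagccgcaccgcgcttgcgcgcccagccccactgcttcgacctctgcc
The capitals in Atp5g2 spell the palindromic motif searched for NRF1, a factor known to bind promoters of many respiratory chain genes. The capitals in Atp5g3 are the reverse complement of AAGGTCA, the core element bound by estrogen-related receptors. Atp5g1 held none of the 4 motifs searched.
Of the 92 nuclear genes, 76 had a promoter window in the RefSeq table. A gene was counted once if any of its windows held the motif. The NRF1 motif was found for 7 of the 76 genes (9.21%), against 1.07% of all 27025 genes with a window. AAGATGGCG, the motif of YY1, was found in 8 (10.5% against 1.64%) and AAGGTCA in 8 (10.5% against 5.38%). ACTTCCGG, the motif of ETS factors such as GABPA, was found in 5 (6.58% against 4.31%). Both strands were searched. The genes set against the members were not matched to them for base composition, expression or number of windows, and no test was run. A match describes the letters of the window and says nothing of binding in this tissue.

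The summed FPKM of the libraries lay between 406274 and 445404. Some markers of cell types and tissues differed between TBI and Sham, where 14.9% of all genes were called higher and 12% lower. All 9 markers of microglia and macrophages were called higher in TBI. So were 5 of 6 astrocyte, 3 of 4 measured red cell, 2 of 5 choroid plexus, 1 of 5 endothelial and 1 of 7 thalamic markers. Among oligodendrocyte and pericyte markers 0 of 6 and 0 of 5 were called. Of the neuronal markers 4 of 9 were called lower, and of 10 cortical layer markers 6 were called lower and 1 higher. Of 5 parvalbumin markers 1 was called lower, as was 1 of 2 measured skeletal muscle markers. Between treated and TBI tissue 0 markers were called. The part of these shifts in the members' values was not tested. In a piece of tissue, fewer cells of a type and less RNA per cell cannot be told apart. Pieces also differed within a group. The 7 thalamic markers averaged 2.65 log2 units above Sham in TBI library 3 and 0.60 and 0.54 in TBI libraries 1 and 2, and 2.08 and 1.47 in C-β-LG/DSF libraries 2 and 3 against 0.29 in library 1.

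In Sham tissue the members were among the more abundant messages. The median of their mean Sham FPKM was 116 over the 104 measured members, against 9.60 over all 14292 genes measured by the same filter. Complex V had the highest median of the nuclear sets, 211 FPKM over 15 genes, and ranged from 122 for Atp5j2 to 588 for Atp5b, the catalytic beta subunit. Complex IV had a median of 169 over 16 genes and the widest range, from 0.297 for Cox8b to 1280 for Cox8a, which are alternative forms of the same small subunit. Complex III had a median of 135 over 8 genes. Complex I had a median of 90.8 over 37 genes, from 17.3 for Ndufa11 to 260 for Ndufa4, a subunit that is counted here by its name although it is now placed in complex IV. Complex II had a median of 78.9 over 4 genes, from 62.3 for Sdhc, a membrane anchor, to 118 for Sdha, the catalytic subunit. The 11 matched genes that are not subunits lay far lower, with a median of 11.6.

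The 13 mitochondrially encoded genes spanned a wider range than any nuclear complex other than complex IV. Their median in Sham was 1210 FPKM, and the means ran from 85.9 for mt-Nd3, a complex I subunit, to 14300 for mt-Co1, the catalytic subunit of complex IV. mt-Nd1 (7550 ± 362, SD, n = 3) and mt-Cytb, the only complex III subunit of mitochondrial DNA, came next to mt-Co1. mt-Co2 and mt-Co3, whose products join mt-Co1 in the core of complex IV, lay at 526 ± 113 and 253 ± 33.4 (SD, n = 3). The part that the placing of reads had in such gaps, and in the summed values of the 13 genes, was not tested. Together the 13 genes made up 8.99% ± 0.90 of the summed FPKM in Sham (SD, n = 3) and the nuclear members 3.06% ± 0.11.

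TBI against Sham asks what injury did to the tissue. In the fit across all genes 26.8% of genes were called, meaning an adjusted p under 0.05 by limma with Benjamini-Hochberg adjustment over all 14292 genes, with 14.9% called higher and 12% lower. Of the 104 respiratory chain genes 3 were called (2.88%): Atp5g2 and Ndufb7 rose and Ndufb4 fell. The remaining 101 did not pass, and for most of the nuclear members the fit put a bound on the size of any difference. The 95% interval of the difference lay within 1.5-fold in either direction for 79 of 91 nuclear members (86.8%), against 45.4% of all genes. The median difference of the nuclear members was -0.05 on the log2 scale, with 54 of 91 (59.3%) below 0, beside a median of 0.01 and 49.1% below 0 over all genes.

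**Figure D1:**
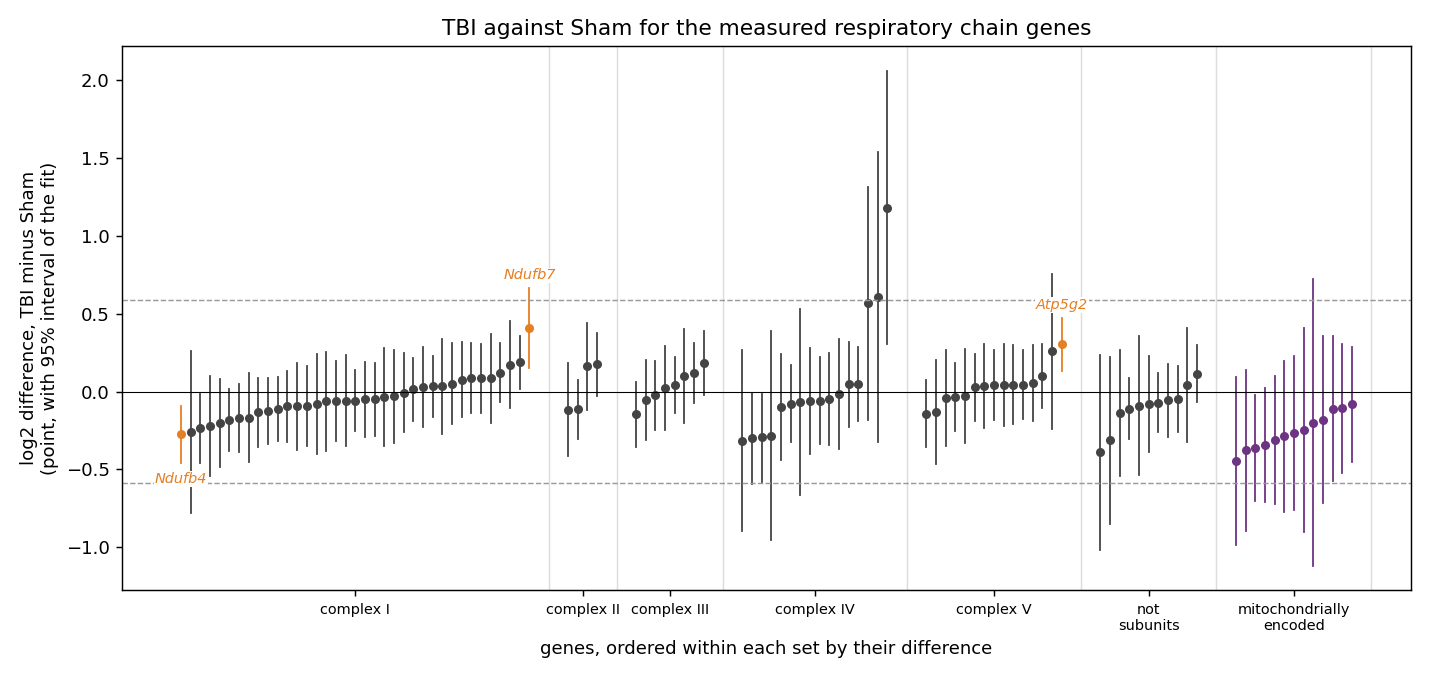
Log2 difference of TBI minus Sham (vertical axis) for each of the 104 measured genes, with the 95% interval of the limma fit as a line, grouped along the horizontal axis by complex and sorted within each. Dashed lines mark 1.5-fold in either direction, orange marks the 3 genes called, and purple marks the mitochondrially encoded genes, all 13 of which lie below 0 with wide intervals.

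In complex I, which takes electrons from NADH, 1 of 37 nuclear subunits rose and 1 fell, and the median difference was -0.06. That median was -0.115 without TBI library 3 and turned to 0.019 without TBI library 1. Ndufb7, an accessory subunit of the membrane arm (chr8:83566671-83571626, plus strand), stood at 104, 120 and 105 FPKM in Sham libraries 1 to 3, 153, 148 and 135 in TBI and 113, 142 and 146 in C-β-LG/DSF. Every TBI library lay above every Sham library, while the treated libraries were spread over both ranges. The difference of TBI and Sham was 0.41 on the log2 scale (SE 0.11, limma adjusted p = 0.028). It did not pass without the filter on low values (adjusted p = 0.0611) or without Sham library 1 or 3 or TBI library 1 or 2 (adjusted p from 0.0626 to 0.0954).

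Ndufb4, another accessory subunit of the membrane arm (chr16:37647170-37654453, minus strand), stood at 45, 40.5 and 42 FPKM in Sham, 32.3, 36.7 and 36.3 in TBI and 35, 37.3 and 37.3 in C-β-LG/DSF. All 6 injured libraries lay below all 3 Sham libraries. The difference of TBI and Sham was -0.27 (SE 0.08, limma adjusted p = 0.035), and that of C-β-LG/DSF and Sham was -0.21 (SE 0.08, limma adjusted p = 0.115). The call in TBI was lost under quantile normalization, rescaling, a fit of the 2 groups alone, the replicate block or no variance trend (adjusted p from 0.0593 to 0.119), and without each Sham library, TBI library 1 or C-β-LG/DSF library 2 or 3 (adjusted p from 0.0538 to 0.12). Ndufa2, a subunit of the matrix arm, was the complex I gene of next smallest p, with values of 94.6, 105 and 103 FPKM in Sham and 115, 116 and 113 in TBI. Its groups did not overlap, and the difference of 0.19 (SE 0.08) was not called at a limma adjusted p of 0.0998. Over all nuclear members the groups did not overlap for 7 with higher and 5 with lower values in TBI, 7.69% and 5.49% of 91, against 22.6% and 20.4% of all genes.

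None of the 4 genes of complex II, succinate dehydrogenase, was called, and none had an unadjusted p under 0.05. Sdhd, a membrane anchor, stood at 69.2, 82.2 and 82.4 FPKM in Sham and 89.2, 84.7 and 89.6 in TBI, a difference of 0.18 (SE 0.09, limma adjusted p = 0.187). Sdhc, the other anchor, differed by 0.16 (SE 0.12), and Sdhb, the iron-sulfur subunit, by -0.11 (SE 0.08). Both anchors had higher values in every TBI library than in any Sham library, whereas Sdha and Sdhb overlapped. None of the 8 nuclear genes of complex III, which passes electrons to cytochrome c, was called or had an unadjusted p under 0.05. The complex III genes of smallest p were Uqcrq and Uqcr10, small accessory subunits, at 0.19 (SE 0.09) and 0.12 (SE 0.09), and Uqcrc2, a core subunit, at -0.14 (SE 0.09). The intervals of all 4 genes of complex II and all 8 of complex III lay within 1.5-fold.

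None of the 16 nuclear genes of complex IV, cytochrome c oxidase, was called in TBI, and 3 had an unadjusted p under 0.05. Cox8a, the widespread form of a small subunit and the most abundant nuclear member (chr19:7215153-7217616, minus strand), stood at 1170, 1370 and 1300 FPKM in Sham, 949, 1060 and 1110 in TBI and 1040, 970 and 900 in C-β-LG/DSF. Cox6c, an accessory subunit, stood at 559, 502 and 530 in Sham, 384, 423 and 496 in TBI and 389, 459 and 381 in C-β-LG/DSF. All 6 injured libraries lay below all 3 Sham libraries for both genes. The TBI differences were -0.30 for Cox8a (SE 0.13, limma adjusted p = 0.116) and -0.30 for Cox6c (SE 0.13, limma adjusted p = 0.113), and neither was called. Cox8a passed under quantile normalization (adjusted p = 0.0191) and Cox6c without TBI library 3 (adjusted p = 0.0408).

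Of the 15 nuclear genes of complex V, ATP synthase, 10 had a higher mean log2 value in TBI, with a median difference of 0.04 that turned to -0.038 without TBI library 3 and to -0.014 without Sham library 1. The medians of complexes II, III and IV, at 0.025, 0.033 and -0.06, also turned, to -0.013 without Sham library 1, to -0.043 without TBI library 3 and to 0.052 without TBI library 1. Atp5g2 (chr15:102662864-102672352, minus strand) was its only call. It stood at 120, 123 and 126 FPKM in Sham, 155, 154 and 148 in TBI and 137, 134 and 122 in C-β-LG/DSF. The TBI libraries lay above all others, and the treated libraries overlapped Sham. The difference of TBI and Sham was 0.30 (SE 0.08, limma adjusted p = 0.0183). Without Sham library 1, 2 or 3 it was not called, with adjusted p of 0.0643, 0.0573 and 0.0516.

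The other 2 genes for the same c subunit showed no such step. Atp5g1 stood at 160, 185 and 221 FPKM in Sham and 168, 179 and 205 in TBI, and Atp5g3 at 325, 312 and 346 in Sham and 316, 322 and 377 in TBI. Their groups overlapped, and the 95% intervals of the differences ran from -0.33 to 0.28 for Atp5g1 and from -0.18 to 0.27 for Atp5g3. Whether Atp5g2 differed from its partners in response was not tested. Per transcript length, Atp5g3 had the highest level of the 3 genes in every library. Atp5e, the epsilon subunit, and Atp5f1, a subunit of the stalk, were the complex V genes of next smallest p, with differences of 0.26 (SE 0.22) and -0.14 (SE 0.10) that were not called.

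**Figure D2:**
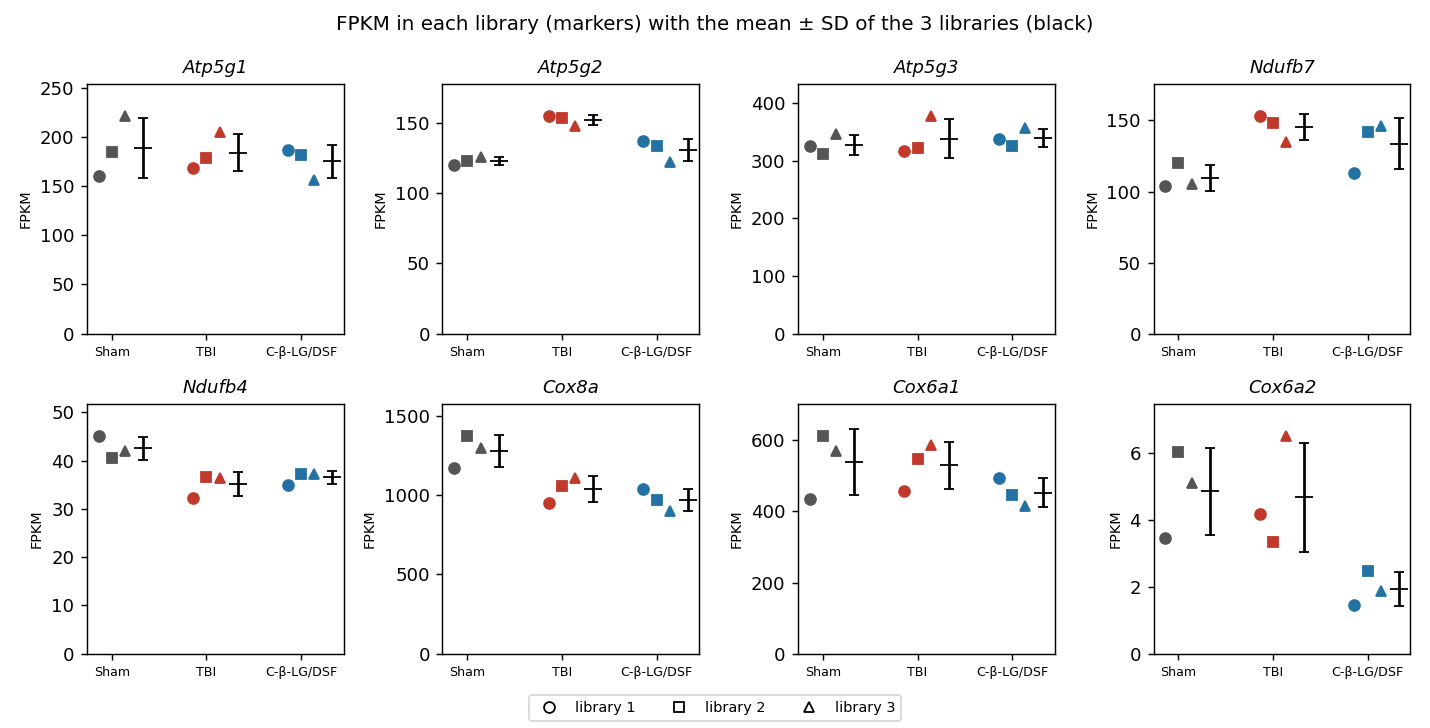
FPKM (vertical axes, each from 0) of 8 nuclear genes in each library, with the mean and SD of the 3 libraries of a group in black. Atp5g2 and Ndufb7 are higher in all TBI than in all Sham libraries, Ndufb4 and Cox8a are lower, and Cox6a2 is lowest in the C-β-LG/DSF libraries.

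None of the 11 matched genes that are not subunits was called in TBI, and 9 of them had a value below 0 (median difference -0.08). Ndufaf2, Ndufaf7 and Ndufaf3, assembly factors of complex I, had the smallest p of the assembly factors. Ndufaf2 stood at 10.1, 11.1 and 12.9 FPKM in Sham and 11.3, 5.87 and 9.25 in TBI, a difference of -0.39 (SE 0.28) that was -0.14 without TBI library 2. Ndufaf7 differed by -0.11 (SE 0.09) and Ndufaf3 by -0.07 (SE 0.08). Ndufaf3 lay at 16.6, 16.4 and 16.6 in Sham and 15.3, 16 and 15.8 in TBI.

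The mitochondrially encoded genes had lower values in TBI than in Sham, 13 of 13, and none was called. The median difference was -0.27 on the log2 scale, with single genes from -0.45 for mt-Atp8 to -0.08 for mt-Co2. The value of mt-Atp8 was -0.17 without TBI library 1. Of the 13 genes 1, mt-Atp6, had an unadjusted p under 0.05 by limma, against 39.1% of all genes. The standard errors were larger than for the nuclear members, with a median of 0.22 against 0.11, and 0.15 over all genes. They include the trend of the variance on the mean. Without that trend 3 of the 13 genes had an unadjusted p under 0.05 by limma. Of the 13 genes 0 were then called, against 25.6% of all genes, and the limma adjusted p of mt-Nd1 was 0.138 in place of 0.409. The interval lay within 1.5-fold for 3 of the 13 genes, so for the other 10 the fit sets no such bound. The 13 genes are cut from shared precursors and are not independent of each other, and no test of the set, or of mitochondrially encoded against nuclear members, was run. The direction held for 12 of 13 genes without Sham library 1 or 2, for 11 without TBI library 2 and for 10 under quantile normalization.

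mt-Nd4, a core membrane subunit of complex I, stood at 2560, 2890 and 2360 FPKM in Sham, 2000, 1990 and 2150 in TBI and 1910, 2340 and 1850 in C-β-LG/DSF. mt-Nd1, another core subunit of complex I, stood at 7840, 7680 and 7150 in Sham, 6370, 5700 and 6820 in TBI and 4640, 6000 and 5100 in C-β-LG/DSF. mt-Cytb, the cytochrome b of complex III, stood at 7790, 6830 and 5730 in Sham, 5190, 5030 and 5340 in TBI and 4420, 6160 and 5220 in C-β-LG/DSF. For these 3 of the 13 genes (23.1%) every TBI library lay below every Sham library, against 20.4% of all genes with lower values in the same sense. Their differences of TBI and Sham were -0.34 (SE 0.16), -0.27 (SE 0.22) and -0.38 (SE 0.23), with limma adjusted p of 0.154, 0.409 and 0.258.

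mt-Co1, the catalytic subunit of complex IV, stood at 14600, 15600 and 12800 FPKM in Sham, 11800, 10900 and 13700 in TBI and 9670, 13300 and 10500 in C-β-LG/DSF. TBI library 3 lay inside the Sham range, and the difference of -0.25 (SE 0.29) was not called. mt-Co2 stood at 425, 648 and 504 in Sham and 464, 448 and 562 in TBI, and mt-Co3 at 224, 289 and 245 in Sham and 215, 194 and 305 in TBI. Both overlapped between the groups, and their differences turned positive without Sham library 2 (0.08 for mt-Co2) and without TBI library 2 (0.03 for mt-Co3).

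The ATP synthase pair overlaps in sequence, as printed above. Their values differed in pattern, and how far these values are separate was not measured. mt-Atp6, a subunit of the proton channel, stood at 491, 532 and 383 FPKM in Sham, 334, 341 and 412 in TBI and 295, 370 and 324 in C-β-LG/DSF. mt-Atp8, a small membrane subunit, stood at 1070, 1480 and 1090 in Sham, 603, 1120 and 1010 in TBI and 776, 973 and 795 in C-β-LG/DSF. In both genes TBI overlapped Sham and every treated library lay below every Sham library. The TBI differences were -0.36 for mt-Atp6 (SE 0.15, limma adjusted p = 0.107) and -0.45 for mt-Atp8 (SE 0.24, limma adjusted p = 0.205).

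The remaining complex I genes of mitochondrial DNA overlapped between TBI and Sham. mt-Nd2 stood at 3740, 2900 and 2760 FPKM in Sham and 2540, 2260 and 2860 in TBI, and mt-Nd5 at 2250, 2110 and 1650 in Sham and 1630, 1510 and 1670 in TBI. With differences of -0.29 and -0.31 (SE 0.22 and 0.18), these 2 genes and mt-Nd4 passed under quantile normalization alone (adjusted p of 0.0404, 0.0203 and 0.0107). mt-Nd3 stood at 74.4, 94.7 and 88.4 in Sham and 74.8, 79.7 and 83.2 in TBI, and mt-Nd4l at 198, 184 and 137 in Sham and 127, 130 and 205 in TBI. mt-Nd6, the only member read from the other strand, had the widest spread: 569, 214 and 184 in Sham, 332, 185 and 241 in TBI and 134, 192 and 236 in C-β-LG/DSF. Library 1 sets its Sham mean, and without it the TBI difference turned from -0.20 (SE 0.41) to 0.31.

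**Figure D3:**
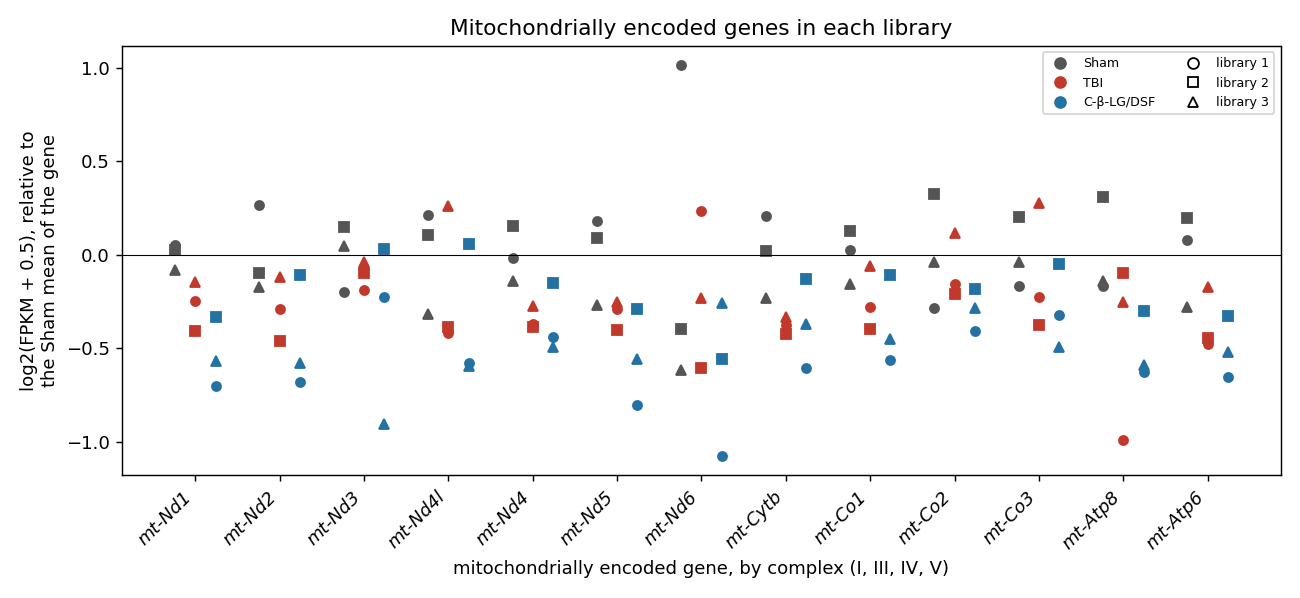
Log2(FPKM + 0.5) relative to each gene's Sham mean (vertical axis) for the 13 mitochondrially encoded genes (horizontal axis, by complex), with colour for the group and marker shape for the library number. Most injured libraries lie below 0, TBI library 3 is the highest of its group in 11 of 13 genes, and C-β-LG/DSF library 2 is the highest of its group in 12 of 13.

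Libraries of a group differed from each other across many members at once. The median of the 91 nuclear members relative to each gene's Sham mean was -0.12, -0.02 and 0.09 in TBI libraries 1 to 3, and -0.07, 0.00 and 0.03 in C-β-LG/DSF libraries 1 to 3. TBI library 1 was the lowest of its group in 61 of 91 nuclear members and TBI library 3 the highest in 59. Without TBI library 1 the nuclear median of TBI against Sham turned from -0.05 to 0.04. The neuronal markers averaged -1.0 in TBI library 1, -0.45 in library 2 and -0.43 in library 3, and the 9 microglial markers 2.87, 2.54 and 1.87. The summed FPKM of 6 oligodendrocyte markers was 2760, 2800 and 8980 in TBI libraries 1 to 3. The part of these cell types and of the thalamic tissue in the members' values was not tested.

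The mitochondrially encoded genes followed another order. Their median relative to Sham was 0.06, 0.13 and -0.16 in Sham libraries 1 to 3, -0.29, -0.40 and -0.15 in TBI, and -0.61, -0.15 and -0.52 in C-β-LG/DSF. Sham library 3, TBI library 3 and C-β-LG/DSF library 2 thus lay close together, and the groups were not separated. The same held for the share of the summed FPKM: 9.68%, 9.31% and 7.97% in Sham, 7.41%, 7.03% and 8.28% in TBI, and 6.18%, 8.39% and 6.93% in C-β-LG/DSF. The means were 8.99% ± 0.90, 7.57% ± 0.64 and 7.17% ± 1.12 (SD, n = 3 each). The nuclear members made up 3.06% ± 0.11, 3.08% ± 0.26 and 3.14% ± 0.07 of the summed FPKM. The summed FPKM of the mitochondrially encoded genes was 2.95 ± 0.39 times that of the nuclear members in Sham, 2.46 ± 0.18 times in TBI and 2.28 ± 0.34 times in C-β-LG/DSF (SD, n = 3 each). TBI library 3 and C-β-LG/DSF library 2, the highest of their groups for the mitochondrially encoded genes, were also those with the highest thalamic markers, and the part of the tissue taken was not tested.

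**Figure D4:**
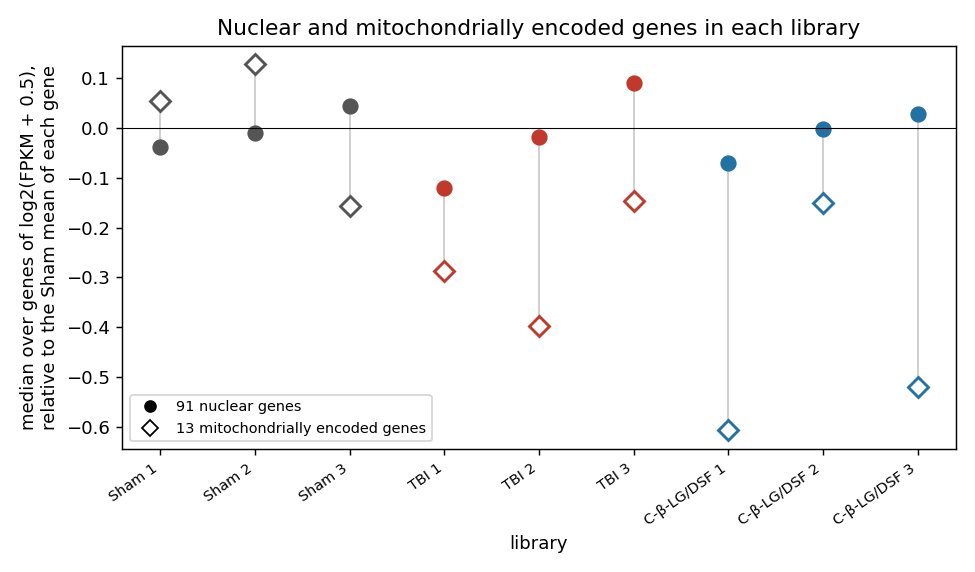
Median over genes of log2(FPKM + 0.5) relative to each gene's Sham mean (vertical axis) in each of the 9 libraries (horizontal axis), with filled circles for the 91 nuclear genes and open diamonds for the 13 mitochondrially encoded genes. The nuclear medians stay between -0.12 and 0.09, and the mitochondrial ones run from 0.13 in Sham library 2 to -0.61 in C-β-LG/DSF library 1.

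The precision of single values differed between the genomes. The deposited table gives an interval around each FPKM value, and its median width on either side was 45.2% of the value for the nuclear members and 78.5% for the mitochondrially encoded ones. The interval in the authors' deposited table reached 0 in 106 of 816 nuclear values and in 36 of 117 mitochondrial values. For mt-Co1 the width was 0.373% and 0.365% in Sham libraries 1 and 2 and 133% to 138% in the other 7 libraries, in the authors' deposited table. These intervals were not used in the tests.

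C-β-LG/DSF against TBI asks what the injection changed in injured tissue. In this comparison 0% of all genes were called by limma, and 0 of the 104 members, while 2 members had an unadjusted p under 0.05, against 11.8% of all genes. The nuclear median was 0.01, from -0.05 without TBI library 1 to 0.08 without TBI library 3, and the interval lay within 1.5-fold for 79 of 91 nuclear members (86.8%), against 59.9% of all genes. The members of smallest p with higher values were Ndufaf5 at 0.22 (SE 0.10), Ndufa8 at 0.19 (SE 0.10) and Ndufs6 at 0.15 (SE 0.09), an assembly factor and accessory subunits of complex I. Those with lower values were Cox6a2 at -1.06 (SE 0.27), Atp5g2 at -0.22 (SE 0.08) and Uqcrq at -0.17 (SE 0.09). None of the 6 passed, with limma adjusted p from 0.394 to 0.503.

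Ndufa8 was the only member whose treated libraries all lay above all TBI libraries, at 91.4, 94.8 and 93.9 FPKM against 74, 84 and 87.9, with 83.6, 80.1 and 99.7 in Sham. Of the nuclear members 10 had every treated library below every TBI library, among them Cox6a2, Atp5g2 and Uqcrq. These are 1.1% and 11% of 91, against 5.97% and 9.28% of all genes, or 15.3% in either direction. Among the mitochondrially encoded genes 12 of 13 had lower values in the treated libraries, against 53.3% of all genes, with a median difference of -0.18, and 0 of 13 had an unadjusted p under 0.05. That count was 8 of 13 without TBI library 3 and 8 of 13 under quantile normalization. The median difference of the 13 genes was -0.04 without TBI library 3 and -0.30 without C-β-LG/DSF library 2. The 95% intervals of these genes reached a median of 0.48 to either side, more than the median TBI difference of -0.27 in size. In this fit such an interval around a treatment difference of that size would include 0. These widths include the variance trend of the fit, and widths without it are not given here. Without the trend 0 of the 13 genes also had an unadjusted p under 0.05 by limma.

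C-β-LG/DSF against Sham compares treated injured tissue with uninjured tissue and shares the Sham libraries with the first comparison and the treated libraries with the second, so the 3 comparisons are not independent. By limma 13.3% of all genes were called, 6.37% higher and 6.88% lower. Of the 104 members 1 was called, Cox6a2, which fell. The nuclear median was -0.03, with 49 of 91 values (53.8%) below 0, and the interval lay within 1.5-fold for 78 of 91 (85.7%), against 51.1% of all genes. By complex the nuclear medians were -0.03 for I, 0.08 for II, -0.04 for III, -0.06 for IV and 0.04 for V. Under quantile normalization all 5 lay above 0.

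The mitochondrially encoded genes had lower values in the treated tissue than in Sham, 13 of 13, with a median difference of -0.37 and a range from -0.63 for mt-Nd6 to -0.29 for mt-Co3. The value of mt-Nd6 was -0.12 without Sham library 1, and that of mt-Co3 -0.185 without C-β-LG/DSF library 3. None was called, and 3 had an unadjusted p under 0.05 (23.1%, against 29.8% of all genes). Without the variance trend 7 of the 13 had an unadjusted p under 0.05 by limma. In that fit 1 was called, mt-Nd1, and 12.3% of all genes were called. mt-Atp6 was nearest to a call at -0.50 (SE 0.15, limma adjusted p = 0.0588), followed by mt-Nd5 at -0.55 (SE 0.18, adjusted p = 0.077) and mt-Nd1 at -0.53 (SE 0.22, adjusted p = 0.141). mt-Atp6 passed in a fit of the 2 groups alone and without Sham library 3, TBI library 1 or TBI library 3 (adjusted p from 0.0411 to 0.0466). mt-Nd5 passed under quantile normalization, and mt-Nd1 without a variance trend (adjusted p = 0.0251). For mt-Nd1, mt-Nd4, mt-Nd5, mt-Atp6 and mt-Atp8 every treated library lay below every Sham library, 5 of 13 (38.5%) against 21% of all genes. mt-Nd5 had treated values of 1140, 1630 and 1350 FPKM beside 2250, 2110 and 1650 in Sham. Without C-β-LG/DSF library 2, the treated library nearest to Sham, the median difference was -0.59. Cox8a and Cox6c of complex IV, which also had lower values in all treated libraries, differed from Sham by -0.40 (SE 0.13, limma adjusted p = 0.071) and -0.38 (SE 0.13, limma adjusted p = 0.079). Cox8a passed in 3 separate alternatives, a fit of the 2 groups alone, one without a variance trend and one without TBI library 1 (limma adjusted p from 0.0369 to 0.0435).

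Several subunits of complex IV exist as a widespread form and as a form restricted to some tissues, such as heart and skeletal muscle, lung or testis. In these libraries each restricted form lay at a few percent of its partner or less. Cox6b2, known from testis, ranged from 0.744% to 3.56% of Cox6b1 over the 9 libraries, Cox7a1, known from heart and muscle, from 1.39% to 3.53% of Cox7a2, and Cox4i2, known from lung, from 0.135% to 0.354% of Cox4i1. Ndufa4l2, a hypoxia-responsive relative of Ndufa4, ranged from 0.774% to 1.55% of it. Cox7b2, known from testis, was listed at 0 in Sham library 3 and reached 1.04% of Cox7b at most. None of these 5 was called in any comparison. Cox7a2l, a widespread relative of Cox7a2 known to join complexes III and IV, was not among the rare forms, with 92.2, 106 and 99.5 FPKM in Sham, and it differed by 0.11 in TBI (SE 0.08). Cox8b was listed at 0 in Sham libraries 2 and 3 and stood at 0.891 in Sham library 1, 1.01, 0.996 and 1.3 FPKM in TBI and 0.548, 1.01 and 0.41 in C-β-LG/DSF. Its TBI difference of 1.18 (SE 0.39, limma adjusted p = 0.0509) was the largest of any member and is on the scale of log2(FPKM + 0.5), and without Sham library 1, or with 0.1 added to FPKM in place of 0.5, the adjusted p was 0.00999 and 0.048. The interval in the authors' deposited table reached 0 for Cox8b in all 9 libraries.

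Cox6a2, the restricted form of subunit 6a, was the one member called in treated tissue (chr7:128205435-128206387, minus strand). It is known from heart and skeletal muscle and, in mouse brain, from parvalbumin interneurons. It stood at 3.45, 6.01 and 5.11 FPKM in Sham, 4.16, 3.35 and 6.49 in TBI and 1.47, 2.48 and 1.87 in C-β-LG/DSF. Every treated library lay below all 6 other libraries, while TBI and Sham overlapped. The difference of treated and Sham tissue was -1.13 (SE 0.27, limma adjusted p = 0.0243), that of treated and TBI tissue -1.06 (SE 0.27, limma adjusted p = 0.394) and that of TBI and Sham -0.07 (SE 0.27, limma adjusted p = 0.879). The call against Sham was lost without the filter on low values (adjusted p = 0.0844) and without Sham library 2 or 3 or C-β-LG/DSF library 1 or 3 (adjusted p from 0.0702 to 0.0889).

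Its widespread partner Cox6a1 stood at 435, 611 and 570 FPKM in Sham, 457, 548 and 586 in TBI and 495, 447 and 414 in C-β-LG/DSF, and the groups overlapped. Cox6a2 made up 0.793%, 0.984% and 0.897% of Cox6a1 in Sham, 0.912%, 0.612% and 1.11% in TBI and 0.296%, 0.555% and 0.451% in the treated group. Pvalb, the calcium-binding protein that names the parvalbumin interneurons, stood at 56.2, 57.8 and 79.9 FPKM in Sham, 36.3, 32.6 and 72.2 in TBI and 30.8, 45.4 and 42.1 in the treated group. The 5 parvalbumin markers together summed to between 191 and 226 FPKM in Sham, between 101 and 242 in TBI and between 124 and 225 after treatment. None was called in treated tissue against Sham. Pvalb differed there by -0.705 (SE 0.29), Kcnc1 by -0.35 (SE 0.19), Kcnc2 by -0.12 (SE 0.23) and Syt2 by -0.14 (SE 0.55). Tac1 went the other way, at 1.39 (SE 0.92). The 5 markers averaged -0.48, 0.51 and 0.02 log2 units relative to Sham in C-β-LG/DSF libraries 1 to 3. Of 9 skeletal muscle markers 2 were measured, Acta1 and Mylpf. Acta1 stood at 2.98, 5.36 and 5.18 FPKM in Sham, 2.33, 2.47 and 2.33 in TBI and 2.48, 2.35 and 3.28 in the treated group. It was called lower in TBI than in Sham (-0.76, limma adjusted p = 0.0256) and not called in treated tissue against Sham (-0.62, limma adjusted p = 0.0826). Mylpf had higher values than Sham in both, at 0.53 and 0.55, and was not called. Ckm, muscle creatine kinase, did not pass the filter and was at or under 0.555 FPKM in every library. The part of these cells in the value of Cox6a2 was not tested. The gene overlaps Itgad on the opposite strand, whose own value lay between 0.0582 and 0.567 FPKM, and the interval in the authors' deposited table reached 0 for Cox6a2 in all 9 libraries.

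Genes that build, feed or bypass the chain give the setting of these values, and their lists were chosen with earlier results of these data known. Of 40 assembly factors outside the name rule and cytochrome c, 0 rose and 4 fell in TBI against Sham (median difference -0.11). The share called was 10%, against 26.8% of all genes, and the share called lower over all genes was 12%. Atpaf1, an assembly factor of ATP synthase, stood at 22.2, 27.1 and 23.1 FPKM in Sham, 14, 17.5 and 16.6 in TBI and 19.2, 20.2 and 19 in C-β-LG/DSF, and the TBI libraries lay below all others. Its difference of TBI and Sham was -0.58 (SE 0.11, limma adjusted p = 0.00546). Coa7, which takes part in the assembly of complex IV, fell by 0.41 on the log2 scale (SE 0.11, limma adjusted p = 0.0244). No gene of this list was called in the other comparisons, where 2 and 7 had an unadjusted p under 0.05.

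Among 21 genes that transcribe, copy or process mitochondrial DNA and its RNA, 0 were called in any comparison, with 3, 2 and 3 at an unadjusted p under 0.05. Tfam, which packages mitochondrial DNA and starts its transcription, stood at 13, 11.2 and 10.2 FPKM in Sham, 8.45, 7.56 and 10.1 in TBI and 11.8, 12 and 11 in C-β-LG/DSF. Every TBI library lay below every Sham and treated library, and the differences were -0.38 against Sham (SE 0.13, limma adjusted p = 0.0517) and 0.41 for treated against TBI (SE 0.13, limma adjusted p = 0.394). Top1mt, a topoisomerase of mitochondrial DNA, differed by 0.39 in TBI (SE 0.13, limma adjusted p = 0.0512). None of 11 regulators of mitochondrial biogenesis was called in TBI, with 1 at an unadjusted p under 0.05, and Esrra and Gabpa, the genes of smallest p, stood at -0.30 and 0.30 (SE 0.12 and 0.14).

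Of 78 mitochondrial ribosomal proteins 4 rose and 0 fell in TBI (5.13% against 26.8% of all genes), with Mrps6 at 1.26 (SE 0.19, limma adjusted p = 0.00235) and Mrpl52 at 0.62 (SE 0.19, limma adjusted p = 0.0351). Of 18 genes of the tricarboxylic acid cycle and pyruvate dehydrogenase, which feed electrons to the chain, 1 rose (5.56%), Idh2, at 0.61 (SE 0.16, limma adjusted p = 0.0218), and 0 fell. Dlat, of pyruvate dehydrogenase, stood at -0.31 (SE 0.11, limma adjusted p = 0.0542). Of 19 genes of glycolysis and glucose uptake 1 rose and 4 fell, 26.3%, near the 26.8% of all genes. Hk2, a hexokinase, rose from 0.687, 0.652 and 0.729 FPKM in Sham to 7.65, 3.85 and 2.54 in TBI (difference 2.0, SE 0.34, limma adjusted p = 0.00365), and Eno2, the neuronal enolase, fell by 0.58 on the log2 scale (SE 0.14, limma adjusted p = 0.0175).

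Of 22 genes of import, the outer membrane and carriers 1 rose (4.55%) and 0 fell in TBI, Hspe1, a chaperonin of the matrix, at 0.47 (SE 0.13, limma adjusted p = 0.0284), with Tomm70a, an import receptor, at -0.31 (SE 0.11, limma adjusted p = 0.0671). Of 9 uncoupling proteins and mitochondrial antioxidants 1 rose and 2 fell, 33.3% of a short list against 26.8% of all genes. Ucp2, an uncoupling protein abundant in microglia and macrophages, stood at 14.3, 17.6 and 15 FPKM in Sham, 225, 83.5 and 60.1 in TBI and 63, 45.8 and 70.8 in C-β-LG/DSF. All injured libraries lay far above Sham, with a TBI difference of 2.70 (SE 0.40, limma adjusted p = 0.00226). All 9 microglial markers rose in the same comparison, and their part in the value of Ucp2 was not tested. Slc25a14, a brain carrier of the uncoupling protein family, fell by 0.58 on the log2 scale in TBI (SE 0.13, limma adjusted p = 0.0103). In treated against TBI tissue none of the 8 lists held a call by limma, with 0 to 5 genes of a list at an unadjusted p under 0.05. In treated against Sham tissue 4 of the lists held 1 call each, all higher (1.28% to 11.1% of a list, against 13.3% of all genes), among them Hk2 at 1.35 (SE 0.34, limma adjusted p = 0.0315), Mrps6 at 0.83 (SE 0.19, limma adjusted p = 0.0216) and Ucp2 at 1.89 (SE 0.40, limma adjusted p = 0.0168).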

How the data were processed

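Per the labels, Trizol was used to isolate mouse brain RNA and the Illumina Stranded Total RNA Prep to make libraries. HISAT2 2.1.0 and Cufflinks 2.2.1 are the tools in the submitters' processing notes, and the authors deposited FPKM with lower and upper interval bounds for each gene and library. The sources used here give no genome build, annotation, read count or depth. Low FPKM values had no step shared by many genes, so relative depth was not recovered (at most 7 genes shared a ratio between libraries). FPKM are shares: a rise in 1 gene lowers the others. Identifiers matched GENCODE M21 on GRCm38 for all 105 members (14279 of 14292 measured genes), from which positions, counted from 1, were taken. The table's 1 entry without an identifier was left out.

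Samples were grouped by label, 3 per group. Genes that reached an FPKM of 0.5 in 3 or more of 9 libraries were kept. The limma package (3.58.1, R 4.3.3) was fitted to log2(FPKM + 0.5) of all 9 libraries, giving each group its own mean and leaving 6 residual degrees of freedom. Variances were moderated with a trend on the mean, and two-sided p-values were adjusted by Benjamini-Hochberg over all genes. The added 0.5 understates differences of low genes. The script was tested on simulated data. The smallest two-sided p of an exact permutation test of 3 against 3 is 0.1, so calls rest on the shared variance. A difference subtracts the group named after "against", and its SE and 95% interval come from the fit.

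The members and lists were chosen with earlier results of these data known. Named genes are all mitochondrially encoded members, the 3 of smallest p per complex and among assembly factors in TBI against Sham, the tissue-restricted isoforms and partners, the called or else 3 of smallest p per direction in the other comparisons, and 2 per further list. Atp5g1, Atp5g3, the genes at the ends of the Sham levels, and the single markers of parvalbumin interneurons and skeletal muscle were named after their values were seen. Alternatives changed the pseudocount, filter, scaling, samples in the fit, block, variance trend, set of members and each library in turn.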

Additional observations from a re-analysis of the deposited data

How the results depend on the processing

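Of the results recomputed under each alternative, 32 counts of calls and 20 medians moved, against 82 and 361 that did not, and of the differences of named genes 24 lost a call, 20 gained one and 12 changed sign or came to 0, against 916 that did none of these. In TBI against Sham the members called higher were 1 with no filter and 6 under quantile normalization, and those called lower were 4 under quantile normalization and 0 after rescaling without mitochondrially encoded genes, in a fit of the 2 groups alone, or without the variance trend. Between C-β-LG/DSF and Sham the members called higher were 1 under quantile normalization, and those called lower were 0 with no filter, 2 under quantile normalization, 4 in a fit of the 2 groups alone and 3 without the variance trend. Under quantile normalization the TBI medians were 0.045 for nuclear members, 0.067 for complex I and 0.162 for complex II, and the treated-against-Sham medians were 0.093 for nuclear members and 0.1, 0.201, 0.099, 0.027 and 0.138 for complexes I to V. After rescaling the last were 0.038 for nuclear members and 0.141, 0.022, -0.002 and 0.102 for complexes II to V.

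Leaving out 1 library at a time, members called higher and lower ranged from 0 to 2 and from 0 to 4 in TBI against Sham, and from 0 to 1 and from 0 to 4 between C-β-LG/DSF and Sham. The TBI nuclear median ranged from -0.076 to 0.038, and against Sham the treated medians ranged from -0.586 to -0.345 for mitochondrially encoded genes, 0.008 to 0.129 for complex II, -0.132 to -0.044 for complex IV and 0.018 to 0.09 for complex V. In C-β-LG/DSF against TBI no count moved. The genes of the further lists were not refitted under the alternatives. A group left with 2 libraries was assumed to vary like the others.

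Quantile normalization gives the top-ranked genes equal values by construction, so the differences of mt-Nd1 and mt-Co1 in TBI and of mt-Co1 in treated against Sham tissue were 0. It also turned mt-Nd3 (0.051) and Sdhb (0.029) in TBI and mt-Cytb (0.108) in treated tissue. Without single libraries the TBI differences turned for mt-Co2 (0.079 without Sham library 2, lowest -0.225), mt-Co3 (0.027 without TBI library 2, lowest -0.299), mt-Nd6 (0.307 without Sham library 1 and 0.003 without TBI library 2, lowest -0.508) and Cox6a2 (0.09 without Sham library 2 and 0.123 without TBI library 2, lowest -0.307). The cause of the other changes was not tested.

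The replicate numbers are those in the titles, which also carry a second code with its own numbering. Same-numbered libraries correlated from -0.095 to 0.326 in their deviations from the group means. Libraries of different number correlated from -0.449 to 0.48. The highest of all pairs was TBI library 3 with C-β-LG/DSF library 2. Not every library correlated best with its own number. With 3 libraries a group these correlations cannot exclude a pairing or a shared batch. With the replicate block 24.6%, 0% and 11.4% of all genes were called in the 3 comparisons, and of the members 2 in TBI (Ndufb4 not among them, 0 called lower), 0 and 1. Library depth is unknown here, and 3 libraries a group limit the precision of every gene. The mitochondrially encoded genes had a larger median standard error than the nuclear members in TBI against Sham (0.22 against 0.11). The part of the variance trend in that gap was not tested.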
